A study of Mus musculus with 6 samples.

Results

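The genes of 7 enzymes of the pentose phosphate pathway and of 2 other enzymes that make NADPH in the cytosol were followed in the RNA of BV2, a mouse microglia cell line that grows without limit. These 9 genes were taken by symbol from a count table of 46095 gene symbols: G6pdx, Pgls and Pgd of the oxidative phase, Rpia, Rpe, Tkt and Taldo1 of the non-oxidative phase, and Me1 and Idh1 outside the pathway. All 9 were found, and all 9 were among the 14120 genes with enough counts to be tested. The cells were left untreated (CON group, 3 libraries) or were kept for 6 h with 1 μg/mL of recombinant sTREM-1, the soluble form of a receptor of myeloid cells (sTREM-1 group, 3 libraries). Both groups were of this 1 cell line, and the labels name no other agent or genetic change.

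The pentose phosphate pathway branches from glycolysis at glucose 6-phosphate. Its oxidative phase reduces NADP+ to NADPH and ends in ribulose 5-phosphate, and its non-oxidative phase interconverts sugar phosphates, giving ribose for nucleotides or returning carbon to glycolysis. NADPH drives fatty acid and sterol synthesis, keeps glutathione and thioredoxin reduced and is the substrate of the phagocyte oxidase, so the pathway is well known in activated macrophages and microglia. Malic enzyme (Me1) and cytosolic isocitrate dehydrogenase (Idh1) make NADPH in the same compartment from malate and isocitrate.

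The libraries held between 40070633 and 45877107 counts, and the 9 genes together took 0.110% to 0.111% of the counts in the CON group and 0.131% to 0.136% in the sTREM-1 group. Levels are given as CPM, the usual unit that scales the counts of a gene to the total of its library, here with TMM factors. The p-values come from the quasi-likelihood fit of edgeR, adjusted by the Benjamini-Hochberg method over all tested genes. The labels do not say whether the libraries of a group came from separate cultures, so the p-values measure the spread between these libraries, which may be technical. CPM are shares of the RNA of a library, and a change in the RNA per cell cannot be told apart from a change in the share of cells that make it. Of 13 microglia and macrophage markers, 12 were tested and Aif1 was listed at 0 in every library. Their summed level ran from 3060 to 3090 CPM in the CON group and from 3371 to 3434 CPM in the sTREM-1 group. Much of the difference lay in Csf1r, with means of 521 and 753 CPM. Cd68 (605 and 589 CPM), Tyrobp (300 and 293 CPM) and Tmem119 (1.47 and 1.45 CPM) had lower means after sTREM-1. Of the 12, 5 were called higher and 0 lower by edgeR, where 16.5% and 14.1% of all tested genes were. At an unadjusted p under 0.05 these were 9 and 0, against 2874 and 2593 of 14120 tested genes. The groups did not overlap for 8 higher and 1 lower marker (Tyrobp), against 21.3% and 19.4% of all tested genes. Neuron and astrocyte markers, with Rbfox3 and Aqp4 at 0, summed to at most 0.328 and 0.479 CPM in a library, and the oligodendrocyte markers, with Mog at 0, summed to between 7.17 and 7.84 CPM in the CON group and between 5.63 and 6.70 CPM in the sTREM-1 group. Endothelial markers, with Cldn5 at 0, summed to 1.86 to 2.61 and 1.92 to 2.49 CPM, and fibroblast markers, with Col1a2 and Dcn at 0, to 0.195 to 0.512 and 0.227 to 0.305 CPM, in the CON and sTREM-1 groups. The part of the marker levels in the results was not tested.

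Of the 9 genes, 6 rose after sTREM-1 and none fell. G6pdx, Pgd, Tkt, Taldo1, Me1 and Idh1 were the 6 that rose, whereas Pgls, Rpia and Rpe did not pass the test. That is 6 of 9 called higher, where 30.5% of all tested genes were called, 16.5% higher and 14.1% lower. Which direction had more calls over all genes depended on the scaling, with 2324 higher and 1988 lower here, 1977 and 2383 with upper quartile factors, and 2026 and 2280 with library totals, whereas the calls of the 9 genes were the same under each. The count called lower was also 0 at an unadjusted p under 0.05 and 0 by DESeq2, edgeR's exact test and limma-voom. The median log2 fold change of the 9 genes was 0.26, against -0.00168 for all tested genes. The range was from -0.05 for Rpe to 0.57 for Idh1, so that the largest rise was 1.49-fold. For 5 of the 9 genes each sTREM-1 library lay above each CON library, which held for 21.3% of all tested genes, and for 0 of the 9 the order was the opposite, which held for 19.4%. With a change of at least 1.2-fold also required, 5 of the 9 were called higher and 0 lower, against 5.92% and 4.82% of all tested genes, and the gene lost was Tkt.

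**Figure D1:**
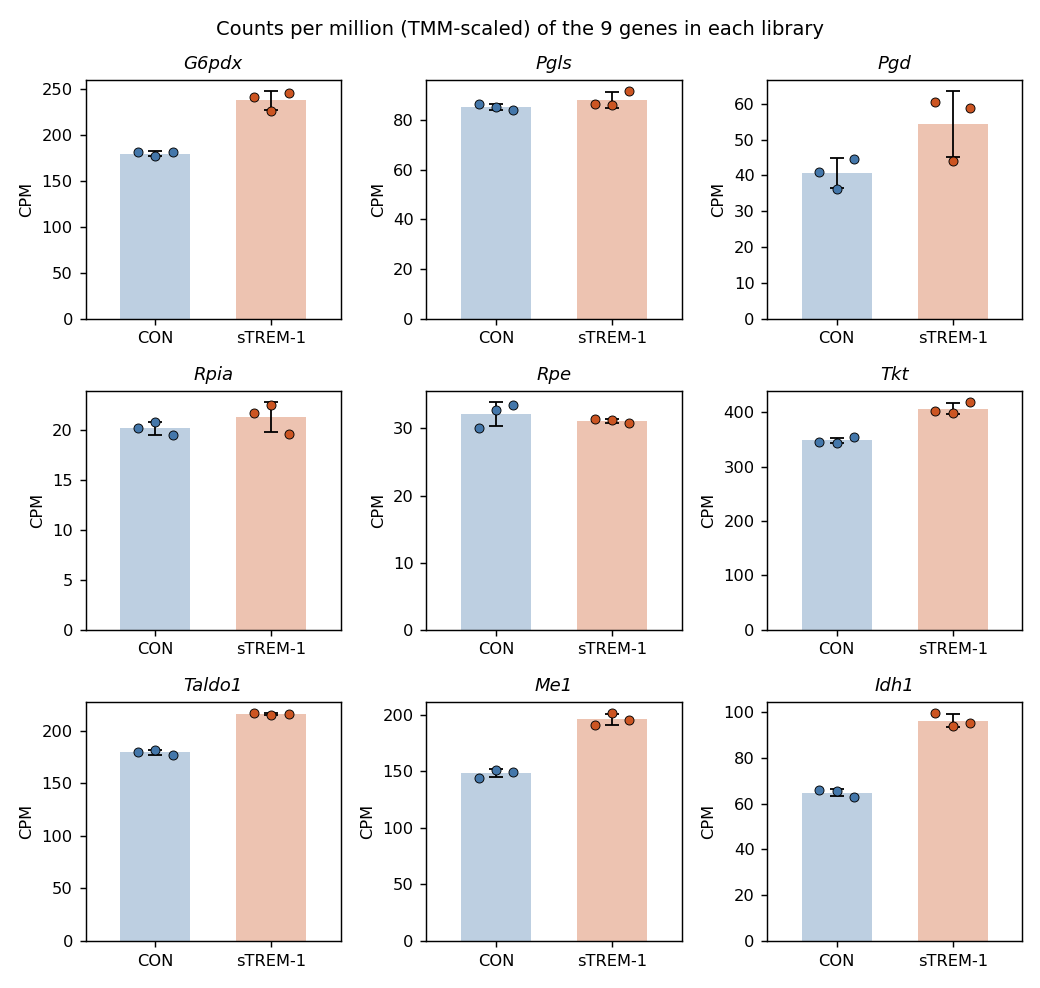
Level of the 9 genes in CPM in each library, with bars for the group means, error bars for the SD and points for the 3 libraries of each group (y axes in CPM, starting at 0). The sTREM-1 points of G6pdx, Tkt, Taldo1, Me1 and Idh1 sit above every CON point, whereas the points of Pgls, Rpia, Rpe and Pgd overlap between the groups.

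Stretches of 30 bases near the RefSeq start of G6pdx and of Me1 are shown because these are the 2 of the 9 genes whose promoter window held the antioxidant response element core, the sequence read by the transcription factor NRF2. The windows ran from 250 bases before to 50 bases after the RefSeq start in GRCm38.p6, and the letters TGACNNNGC were searched on both strands. In G6pdx the match lies on the opposite strand, and in Me1 it lies across the start itself. The core is in capitals, and both lines read 5′ to 3′ on the minus strand, which carries both genes. Both stretches lie inside the spans of these genes in GENCODE M21, which begin further upstream than the RefSeq starts.
G6pdx, chrX:74428918-74428947: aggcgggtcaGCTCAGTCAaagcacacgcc
Me1, chr9:86695901-86695930: gatgccgccgTGACTCAGCgcttctcgcgg

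The same core was found in 12.4% of 32851 promoter windows of 27025 genes, so a match in 2 of 9 genes is a description and not a site. A window at another RefSeq start of Pgd also held it. The sterol regulatory element (TCACNCCAC, 1.24% of all windows) and the E-box (CACGTG, 7.15%) were found in 0 of the 9 genes' windows, and the hypoxia response element core (ACGTG, 19.6%, which is contained in the E-box) was found in that of G6pdx. A window at another RefSeq start of Me1 also held the hypoxia core. No match says only that these letters are not in these windows. The GC box (GGGCGG, 35.7% of all windows) was found in all 9, in genes that rose and in genes that did not. Stretches of 100 bases with this motif in capitals are given for Taldo1 (plus strand) and Me1 (minus strand). They lie before the GENCODE M21 start of the gene itself. Exons of other genes were not looked for there, and the antisense gene A330041J22Rik overlaps 30 exon bases of Me1. All motifs were searched on both strands, and CCGCCC in Me1 is the GC box on the strand opposite to the one printed. The last run of capitals in Me1 holds 1 match and the first bases of the next, which runs on past the stretch.
Taldo1, chr7:141392060-141392159: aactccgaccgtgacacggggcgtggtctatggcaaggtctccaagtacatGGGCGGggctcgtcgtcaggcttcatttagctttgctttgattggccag
Me1, chr9:86695954-86696053: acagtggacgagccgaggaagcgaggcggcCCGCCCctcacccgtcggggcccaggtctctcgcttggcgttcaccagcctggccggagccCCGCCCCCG

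G6pdx, an X-linked gene, encodes the first and rate-limiting enzyme of the oxidative phase (chromosome X of GRCm38 from 74409483 to 74429194). Its level was 181, 176 and 181 CPM in CON replicates 1, 2 and 3 and 241, 226 and 245 CPM in sTREM-1 replicates 1, 2 and 3. The groups did not overlap, and the lowest sTREM-1 library was replicate 2. The mean rose from 179 ± 2.51 to 237 ± 10.1 CPM (SD, n = 3 each), by 32.3%, which is 0.40 ± 0.03 (SE) in log2 units with an edgeR adjusted p of 4.1e-12. A rise at least as large on the log2 scale was seen in 5.42% of all tested genes. Of the exon bases of G6pdx, 13.6% overlap Ikbkg on the opposite strand, and the level of Ikbkg, which encodes a scaffold of the NF-kB kinase, was 85.2 ± 0.744 CPM in the CON group and 88.4 ± 3.23 CPM after sTREM-1 (log2 fold change 0.05, edgeR adjusted p = 0.28). The autosomal copy G6pd2, which shares 7.65% of the 50-base words of the G6pdx transcript, had at most 1 count in a library.

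Pgls encodes 6-phosphogluconolactonase, which opens the lactone ring in the oxidative phase (chromosome 8 from 71592176 to 71601092). Its level was 86.4, 85.2 and 84.1 CPM in the CON libraries and 86.3, 86.2 and 91.7 CPM in the sTREM-1 libraries. The groups overlapped, and only sTREM-1 replicate 3 stood above all CON libraries. The log2 fold change was 0.05, with a 95% interval from -0.03 to 0.12 (edgeR adjusted p = 0.36), so that a rise of the size of that of G6pdx lay outside the interval. Pgls shares 20.6% of its exon bases with Fam129c on the same strand, a gene of 8.05 ± 0.623 CPM in the CON group and 6.84 ± 0.362 CPM after sTREM-1. The log2 fold change of Fam129c was -0.23 (edgeR adjusted p = 0.096). In the shared bases the strand cannot tell the reads of the 2 genes apart.

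Pgd, on chromosome 4 from 149149991 to 149166771, encodes 6-phosphogluconate dehydrogenase, the other NADPH-yielding step of the oxidative phase. Its level was 41.1, 36.2 and 44.7 CPM in the CON libraries and 60.5, 43.9 and 58.8 CPM in the sTREM-1 libraries. Replicate 2 of the sTREM-1 group lay below CON replicate 3, so the groups overlapped although the other sTREM-1 libraries stood well above. The mean rose from 40.7 ± 4.28 to 54.4 ± 9.14 CPM (SD, n = 3 each), which is 0.42 ± 0.08 (SE) in log2 units, the largest error among the 9 genes, with an edgeR adjusted p of 6.7e-05. The spread of Pgd within a group was 10.5% of the mean in CON and 16.8% in sTREM-1, where counting error alone gives 2.45% and 2.07%. The other 8 genes had spreads of 0.440% to 6.96%. No 50-base word of the Pgd transcript occurs in an annotated transcript of another gene. Without sTREM-1 replicate 2 the log2 fold change was 0.55, and without sTREM-1 replicate 1 it was 0.34, past the threshold in both fits (edgeR adjusted p = 1.1e-08 and 0.0017).

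**Figure D2:**
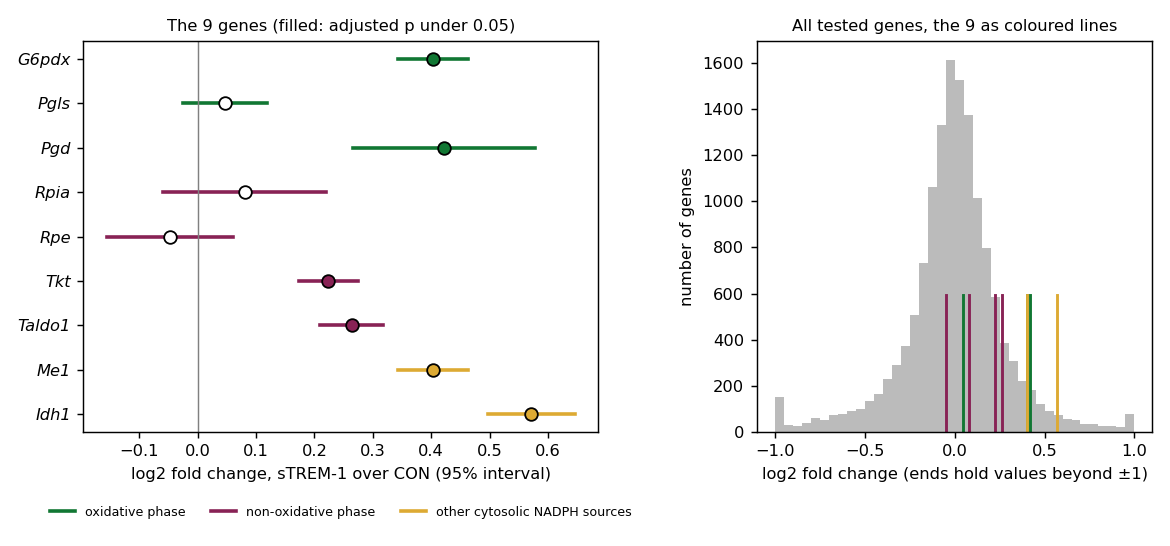
Left, log2 fold change of sTREM-1 over CON with its 95% interval for the 9 genes, coloured by branch and filled where the adjusted p was under 0.05. Right, number of tested genes by log2 fold change, with the 9 genes as lines, where Idh1 at 0.57 stands farthest to the right and the lines of Pgls, Rpia and Rpe stand near 0.

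In the non-oxidative phase, the genes of both carbon-transferring enzymes rose, and those of both interconverting enzymes did not pass the test. Tkt encodes transketolase, a thiamine-dependent enzyme that moves carbon units between sugar phosphates (chromosome 14 from 30548359 to 30574720). Its level was 346, 344 and 354 CPM in the CON libraries and 402, 400 and 419 CPM in the sTREM-1 libraries, with no overlap. Tkt rose by 16.8%, which is 0.22 ± 0.02 (SE) in log2 units with an edgeR adjusted p of 1.8e-08. Taldo1, which encodes transaldolase, works beside transketolase (chromosome 7 from 141392199 to 141402968). Its level was 180, 182 and 177 CPM in the CON libraries and 217, 215 and 216 CPM in the sTREM-1 libraries, again with no overlap and with the least spread of the 9 genes in the sTREM-1 group. Taldo1 rose by 20.1%, which is 0.26 ± 0.03 (SE) in log2 units with an edgeR adjusted p of 3.0e-09.

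Rpia encodes ribose-5-phosphate isomerase, which makes the sugar of nucleotides from ribulose 5-phosphate (chromosome 6 from 70765720 to 70792232). Its level was 20.2, 20.7 and 19.5 CPM in the CON libraries and 21.7, 22.5 and 19.6 CPM in the sTREM-1 libraries, and the groups overlapped. The log2 fold change was 0.08, with a 95% interval from -0.06 to 0.22 (edgeR adjusted p = 0.42). Rpe encodes ribulose-phosphate 3-epimerase, which makes the xylulose 5-phosphate used by transketolase (chromosome 1 from 66700831 to 66719805). Its level was 30.1, 32.7 and 33.5 CPM in the CON libraries and 31.3, 31.2 and 30.8 CPM in the sTREM-1 libraries. All 3 sTREM-1 values lay within the range of the CON group, and the log2 fold change was -0.05, with a 95% interval from -0.16 to 0.06 (edgeR adjusted p = 0.57). The interval of Rpia ended just below the log2 fold change of Tkt, and that of Rpe well below it. Rpe shares 17.9% of its exon bases with Kansl1l on the opposite strand. The level of Kansl1l was 26.7 ± 1.53 CPM in the CON group and 22.9 ± 1.70 CPM after sTREM-1, a log2 fold change of -0.22 (edgeR adjusted p = 0.0095), and without a stated strand the reads of the 2 genes cannot be told apart there.

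Outside the pathway, Me1 encodes cytosolic malic enzyme, which turns malate into pyruvate (chromosome 9 from 86581371 to 86695953). Its level was 144, 151 and 150 CPM in the CON libraries and 191, 201 and 196 CPM in the sTREM-1 libraries, with no overlap. The mean rose from 148 ± 3.58 to 196 ± 5.02 CPM (SD, n = 3 each), by 32.3%, which is 0.40 ± 0.03 (SE) in log2 units with an edgeR adjusted p of 3.5e-12. The fitted rises of Me1 and G6pdx were both 1.32-fold. Of the 50-base words of the Me1 transcript, 32.8% occur in other annotated transcripts, 24.3% in the processed pseudogene Gm7049, which had at most 9 counts in a library, and 20.3% in the noncoding gene Gm48795, which has no row in the table. Taldo1 shares 10.9% of its words with the processed pseudogene Gm17823, which had at most 1 count.

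Idh1 encodes the cytosolic isocitrate dehydrogenase that reduces NADP+ (chromosome 1 from 65158616 to 65186500). Its level was 66.0, 65.6 and 63.1 CPM in the CON libraries and 99.5, 94.1 and 95.5 CPM in the sTREM-1 libraries. The lowest sTREM-1 library stood well above the highest CON library. The mean rose from 64.9 ± 1.56 to 96.4 ± 2.81 CPM (SD, n = 3 each), by 48.6%, which is 0.57 ± 0.04 (SE) in log2 units with an edgeR adjusted p of 2.3e-13. Its 95% interval, from 0.50 to 0.65, began above the end of that of Me1 at 0.46. Among all tested genes Idh1 had rank 58 by p-value, Me1 rank 96, G6pdx rank 101, Taldo1 rank 283, Tkt rank 360 and Pgd rank 1219.

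Levels of different genes were compared per length, as CPM per kilobase (kb) of all annotated exon bases. In the CON group Taldo1 stood highest at 82.7 ± 0.988 (SD, n = 3), followed by G6pdx at 58.2 ± 0.815, Tkt at 47.4 ± 0.709 and Me1 at 38.5 ± 0.930. Idh1 at 23.4 ± 0.564 and Pgls at 22.6 ± 0.317 differed by less than the sum of their SDs. Rpe at 10.3 ± 0.571, Pgd at 6.31 ± 0.663 and Rpia at 3.76 ± 0.117 CPM per kb were lowest. After sTREM-1 the order was the same, with Idh1 at 34.8 ± 1.01 now clear of Pgls at 23.4 ± 0.826 CPM per kb. The order depends on the length used, since all exon bases of a gene can far exceed its longest coding transcript, as in Pgls with 3770 and 1062 bases. Per kb of the longest coding transcript, Tkt had 108 ± 1.62 and Pgls 80.2 ± 1.12 CPM per kb in the CON group, both above G6pdx at 67.6 ± 0.947. On this scale Rpe at 11.8 ± 0.655 and Rpia at 11.0 ± 0.342 CPM per kb differed by less than the sum of their SDs, and Taldo1 remained highest at 132 ± 1.57.

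**Figure D3:**
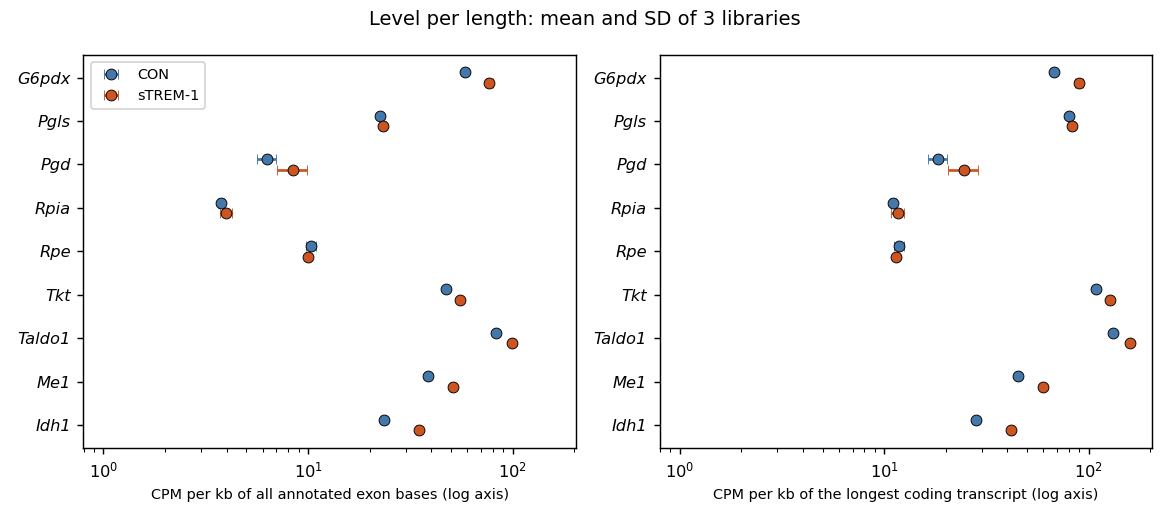
Level of each gene in CPM per kb (log axis), mean and SD of 3 libraries per group, with length taken as all annotated exon bases (left) or as the longest coding transcript (right). Taldo1 is highest on both scales, whereas Pgls moves from 22.6 on the left to 80.2 on the right in the CON group.

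The ratio of 2 genes within a library does not depend on the scaling of the libraries, and its change between groups does not depend on the gene lengths. The following ratios are of CPM per kb of all annotated exon bases and are given as descriptions, without a test. Pgls relative to G6pdx was 0.391, 0.394 and 0.380 in the CON libraries and 0.293, 0.312 and 0.305 in the sTREM-1 libraries, a fall of 21.8% in the mean with no overlap. G6pdx relative to Tkt was 1.25, 1.22 and 1.22 in the CON libraries and 1.43, 1.35 and 1.40 in the sTREM-1 libraries, so the gene of the first oxidative step gained 13.2% on that of transketolase. Taldo1 relative to Tkt was 1.75 ± 0.0462 in the CON group and 1.80 ± 0.0448 after sTREM-1 (SD, n = 3 each), and the groups overlapped. Me1 relative to G6pdx was 0.662 ± 0.0228 in the CON group and 0.663 ± 0.0438 after sTREM-1, also overlapping.

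Rpe relative to Tkt fell from 0.218 ± 0.0107 to 0.181 ± 0.00613 (SD, n = 3 each), with no overlap. The sum of the oxidative genes relative to that of the non-oxidative genes was 0.614, 0.590 and 0.610 in the CON libraries and 0.655, 0.615 and 0.666 in the sTREM-1 libraries. The lowest sTREM-1 value was close to the highest CON value, and the mean shifted by 6.74%. Unlike a ratio of 2 genes, this sum depends on the lengths, and with the longest coding transcript it was 0.633 in the CON group and 0.640 after sTREM-1. Idh1 relative to Idh2, the gene of the mitochondrial enzyme, was 0.443, 0.437 and 0.437 in the CON libraries and 0.609, 0.561 and 0.566 in the sTREM-1 libraries, a gain of 31.9% with no overlap. Idh2 itself was also called higher, with a log2 fold change of 0.17 (edgeR adjusted p = 2.8e-05). Me1 relative to Me2, a mitochondrial malic enzyme, rose from 2.98 ± 0.162 to 3.24 ± 0.0433, a gain of 8.62%.

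**Figure D4:**
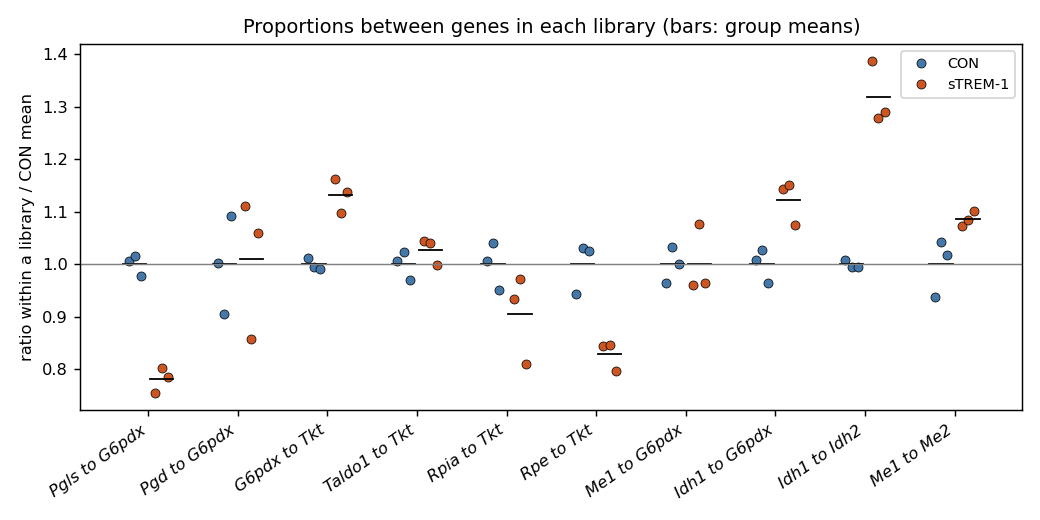
Ratio of 2 genes within each library, divided by its CON mean, for 10 gene pairs, with points for the 3 libraries of each group and bars for group means. The sTREM-1 points of Idh1 to Idh2 lie highest, those of Pgls to G6pdx lie lowest, and those of Taldo1 to Tkt, Pgd to G6pdx and Me1 to G6pdx mix with the CON points.

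The genes around the pathway were described from lists compiled by hand. The counts of each list stand beside 16.5% of all tested genes called higher and 14.1% called lower. Of the other genes of pentose phosphate and ribose metabolism, 10 of 14 were tested, of which 4 were higher and 2 lower (median 0.01 in log2 units). Pgm2 rose most, from 126 ± 5.08 to 184 ± 0.345 CPM (SD, n = 3 each), or by 0.54 in log2 units (edgeR adjusted p = 1.6e-14). Prps2, which makes phosphoribosyl pyrophosphate from ribose 5-phosphate, rose with a log2 fold change of 0.34, whereas its paralog Prps1 fell by 0.13 and the associated protein gene Prpsap1 fell by 0.23 on the log2 scale (edgeR adjusted p = 6.4e-07, 0.010 and 0.00021). The fall of Prps1 was not past the threshold without sTREM-1 replicate 3 (log2 fold change -0.10, edgeR adjusted p = 0.066). H6pd, which runs the oxidative steps inside the endoplasmic reticulum, rose with a log2 fold change of 0.32 (edgeR adjusted p = 0.00015).

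Of the other NADPH-making and NADP kinase genes, 10 of 12 were tested, of which 4 were higher and 1 lower (median 0.09 in log2 units). The shares over all tested genes were 16.5% higher and 14.1% lower. Mthfd1, the gene of the cytosolic folate enzyme that also yields NADPH, rose from 62.9 ± 2.31 to 88.5 ± 3.34 CPM (SD, n = 3 each), or by 0.49 in log2 units. Me2 and Nadk, the kinase that makes NADP+ from NAD+, rose with log2 fold changes of 0.28 and 0.23 (edgeR adjusted p = 8.2e-08 and 9.2e-07). Mthfd2l, a gene of 6.49 ± 0.389 CPM in the CON group, fell by 0.35 on the log2 scale (edgeR adjusted p = 0.023), and this was not past the threshold without CON replicate 1, CON replicate 3 or sTREM-1 replicate 2 (log2 fold changes -0.32, -0.35 and -0.29, edgeR adjusted p = 0.080, 0.055 and 0.11).

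Of the citrate and malate exchange genes, which link Me1 and Idh1 to mitochondria and lipid synthesis, 7 of 8 were tested, of which 4 were higher and 1 lower (median 0.09 in log2 units). Acly, which splits citrate in the cytosol, rose from 164 ± 2.66 to 210 ± 6.20 CPM (SD, n = 3 each), or by 0.36 in log2 units (edgeR adjusted p = 2.1e-11). Cs and Mdh1 had smaller log2 fold changes of 0.10 and 0.09 (edgeR adjusted p = 0.0031 and 0.020), and that of Mdh1 was not past the threshold without CON replicate 2 or sTREM-1 replicate 3 (0.07 and 0.06 on the log2 scale, edgeR adjusted p = 0.12 and 0.13), nor with upper quartile factors or library totals. The lower gene was Slc25a1, the mitochondrial citrate carrier, which is named here only because its values stood out. CON replicates 1, 2 and 3 gave 92, 32 and 335 counts of it, and sTREM-1 replicates 1, 2 and 3 gave 32, 48 and 46. The groups overlapped, and 1 CON library stood far above the rest. Its log2 fold change was -1.92 (edgeR adjusted p = 0.0010), and without CON replicate 3 it was -0.61 (edgeR adjusted p = 0.27). With all libraries it was not called by DESeq2 or limma-voom (adjusted p = 0.10 and 0.067), which leaves 0 lower genes in this list.

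Of the genes around glucose 6-phosphate, from glucose uptake to phosphofructokinase, 10 of 10 were tested, with 8 higher, 0 lower by each of the 4 tools and at an unadjusted p under 0.05, and a median of 0.27 in log2 units. The 8 were the transporters Slc2a1 and Slc2a3, the hexokinases Hk1 and Hk2, Gpi1, and Pfkl, Pfkm and Pfkp of phosphofructokinase, whose enzyme acts past the branch point. G6pc3, a glucose 6-phosphatase, and Hk3 did not pass the test. Pfkl, a subunit of phosphofructokinase, which commits carbon to glycolysis past the branch point, rose from 97.6 ± 1.92 to 154 ± 1.83 CPM (SD, n = 3 each). Its log2 fold change of 0.66 was above that of each of the 9 genes (edgeR adjusted p = 1.9e-16). Gpi1, whose enzyme exchanges glucose 6-phosphate and fructose 6-phosphate, had a log2 fold change of 0.42, and Slc2a1, the glucose transporter GLUT1, of 0.32 (edgeR adjusted p = 6.0e-15 and 3.7e-12).

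Among the genes of NADPH-using enzymes, 15 of 16 were tested. Of the 15, 9 were higher by edgeR's quasi-likelihood test and by its exact test, 8 by DESeq2 and 10 by limma-voom, with 0 lower by each of these and at an unadjusted p under 0.05 and a median of 0.18 in log2 units. Cybb, the catalytic subunit of the phagocyte NADPH oxidase, had a log2 fold change of 0.43, Gsr, glutathione reductase, of 0.41, and Blvrb, biliverdin reductase B, of 0.28 (edgeR adjusted p = 2.1e-14, 7.3e-09 and 1.0e-06). The rule by which these genes were named required that their groups did not overlap.

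Of the known regulators, 10 of 11 were tested, with 4 higher and 0 lower by each of the 4 tools and at an unadjusted p under 0.05 (median 0.08 in log2 units). Over all tested genes 16.5% were called higher and 14.1% lower by the main fit. Srebf1 and Srebf2, the genes of the sterol regulatory element binding proteins, which drive lipid synthesis genes, rose with log2 fold changes of 0.47 and 0.44 (edgeR adjusted p = 7.1e-11 and 1.6e-12). Trp53, which encodes p53, had a smaller log2 fold change of 0.17 (edgeR adjusted p = 6.1e-05). Of the 14 other NRF2 target genes, all tested, 7 were higher and 2 lower (median 0.11 in log2 units). Gclm, the modifier subunit of the enzyme that starts glutathione synthesis, had a log2 fold change of 0.48, and Hmox1, heme oxygenase 1, of 0.26 (edgeR adjusted p = 1.7e-10 and 8.5e-11). Sqstm1, an autophagy receptor, fell by 0.29 and Srxn1, sulfiredoxin, by 0.11 on the log2 scale (edgeR adjusted p = 5.6e-12 and 0.0023). The called targets moved in both directions, and the protein level and activity of NRF2 were not tested. Nfe2l2, which encodes NRF2 and was picked with its values known, had 203 ± 4.86 CPM in the CON group and 201 ± 6.30 CPM after sTREM-1 (SD, n = 3 each, edgeR adjusted p = 0.74). Bach1, the 4th regulator called higher, had 114 ± 3.81 and 123 ± 4.26 CPM (edgeR adjusted p = 0.0060). For Keap1, which was not called, the levels were 21.7 ± 0.390 and 23.2 ± 0.853 CPM (edgeR adjusted p = 0.29).

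**Figure D5:**
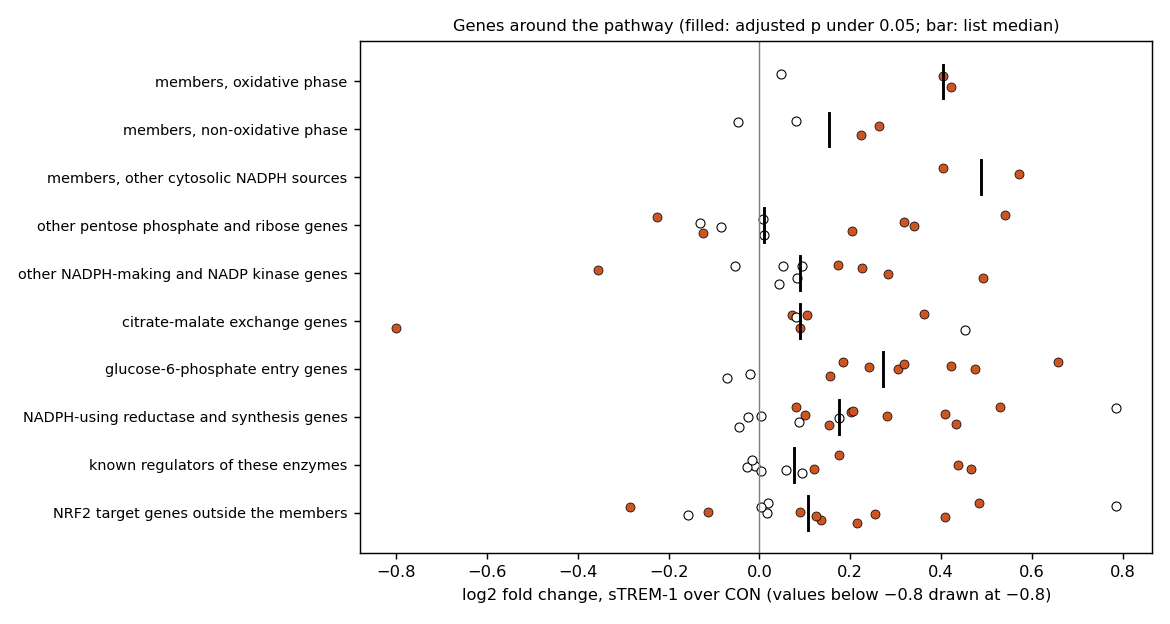
Log2 fold change of sTREM-1 over CON for each tested gene of 10 lists, filled where the adjusted p was under 0.05, with a bar for the list median. The 2 other cytosolic NADPH sources and the oxidative phase have the largest medians (0.49 and 0.40), and the other pentose phosphate and ribose genes spread on both sides of 0. The point drawn at −0.8 is Slc25a1.

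The genes whose course over the 6 libraries lay nearest to that of G6pdx were sought among 9045 tested genes of at least 10 CPM, by the root mean square difference of their log2 CPM after subtraction of the CON mean. Pcx, pyruvate carboxylase, was nearest at 0.011, followed by Mcm5, a subunit of the replicative helicase, and Pcna, the sliding clamp of DNA replication, both at 0.028. Their log2 fold changes were 0.39, 0.44 and 0.41. Nearest to Idh1 were Rnpep, an aminopeptidase gene, at 0.018, and Parp12 and Trim30a, both known as interferon-induced genes, at 0.036 and 0.038. Their log2 fold changes were 0.56, 0.56 and 0.59. With only 6 libraries in 2 groups, this measure mostly reflects the size of the difference between the groups.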

How the data were processed

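The table the authors deposited holds raw counts, 1 column for each of 6 libraries and 1 row per gene symbol, and every column was used. The study's methods state a larger n for this experiment than the labels, which give 3 per group, and those 3 were analysed here. Their methods name FPKM values, which were not used here, and FastQC, RSEM and edgeR. The submitters' processing notes name HISAT2 2.0.4 and the human builds hg19 and GRCh38, although the table holds mouse symbols. The mouse build, the annotation and the strand setting are not given in the sources used here. Genes that passed filterByExpr at a minimum count of 10 were TMM-scaled and tested by the quasi-likelihood method of edgeR 4.0.16 (R 4.3.3) without covariates, and were called at an adjusted p under 0.05. Standard errors and 95% intervals were derived from the F statistic of each gene. Log2 CPM used a prior count of 2. The 9 genes and all lists were chosen with earlier results of these data known. Named from each list were at most 3 genes per direction of smallest p among called genes whose groups did not overlap, and the 3 nearest profiles of G6pdx and Idh1. Also named were genes that overlap or share sequence with the 9, and Idh2 as the mitochondrial counterpart of Idh1. These, and any other gene named outside the rule, were picked with earlier results known. Coordinates, exon lengths and shared 50-base words came from GENCODE M21 (GRCm38), and promoter sequences, found for all 9 genes, from RefSeq (GRCm38.p6). The window of Rpe has a start other than that of the RefSeq gene. No 2 libraries of a group looked like 1 library deposited again (chi-square per gene from 3.45 to 4.99). The test was first checked on simulated counts with 200 changed genes. It recovered 60.5% of these at a 1.2-fold change and 89.0% at a 1.5-fold change. Of its calls, 6.20% and 6.32% were false. Alternatives were other scalings, filters and thresholds, DESeq2 1.42.0, edgeR's exact test, limma-voom (limma 3.58.1), a replicate block, leaving out each library, and another gene length.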

Additional observations from a re-analysis of the deposited data

How the results depend on the processing

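The calls of the 9 genes kept their side of the threshold in all 15 other fits (3 scalings, 2 filters, 3 tools, the replicate block and 6 fits that each left out a library), with 6 higher and 0 lower, and at an adjusted p under 0.01. With at least a 1.2-fold change 5 were called, without Tkt, and over all genes the count went from 4312 to 1517, so that 5.92% of all tested genes were then higher and 4.82% lower. In the lists around the pathway the counts went from 39 higher and 6 lower to 18 and 3. The median log2 fold change of the 9 genes ran from 0.24 with upper quartile factors to 0.27. Without single libraries it ran from 0.25 to 0.27. The ratio of oxidative to non-oxidative genes in the CON group, 0.605, was 0.633 with the longest coding transcript. The replicate block called 4613 genes in all, and no call of the 9 genes changed. Deviations of same-numbered libraries correlated at -0.018, -0.033 and -0.014, which showed no pairing by number. Pgd had the highest adjusted p of the 6 called genes with DESeq2 (0.037), with a range from 1.2e-18 to 0.037 over its alternatives. Of 442 values of the 26 other named genes under alternatives, 22 lost their call and 0 reversed. Counting error is small at this depth, at most 3.48% for Rpia, and the spread between libraries limits Pgd.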
